A study of Mus musculus with 36 samples.

Results

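The question was whether treatment with BD10-2 changed the response of hippocampal slices to theta-burst stimulation in mice with amyloid disease. The quantity reported for each gene is the interaction, the log2 response to stimulation under BD10-2 minus the log2 response under vehicle. A positive interaction means a larger increase or a smaller decrease after stimulation under BD10-2. All 20 libraries labelled T41B entered, of 36 in the series, and libraries that share a mouse and a stimulation label were added, which gave 18 samples from 10 mice. The 4 groups were vehicle sham (4 samples), vehicle stimulated (4), BD10-2 sham (5) and BD10-2 stimulated (5).

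Every mouse in these 4 groups carried human APP with the London and Swedish mutations under the Thy1 cassette (Line 41), so the controls carried the transgene too. This promoter drives the transgene in neurons, and the line models amyloid deposition rather than the whole disease. The mice were dosed orally with BD10-2 or vehicle over 3 months, beginning at 13 months and ending at 16 months. Slices of the right hippocampus then either received a theta-burst train given 3 times, with 10 bursts per train, 4 pulses per burst (100 Hz) and 200 ms between bursts, or a sham procedure of equal duration, and were flash frozen. Both slices were sequenced for 8 mice, of which 4 had received vehicle (Mouse1510, Mouse1551, Mouse1553 and Mouse1579) and 4 BD10-2 (Mouse1563, Mouse1564, Mouse1570 and Mouse1592). Mouse1557 gave a sham slice and Mouse1572 a stimulated slice, both under BD10-2.

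BD10-2 is a small molecule that acts as a partial agonist of the receptors TrkB and TrkC. These receptor tyrosine kinases bind the neurotrophins BDNF and NT-3 and signal through the Ras-MAP kinase, PI3 kinase and phospholipase C pathways. Theta-burst stimulation is the standard way to induce long-term potentiation in the hippocampus, and it is accompanied by transcription of activity-regulated genes in neurons. Microglia, the resident immune cells of the brain, surround amyloid plaques, lose part of their resting gene program there and can release cytokines when a slice is cut or stimulated.

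Total expected counts per T41B library ran from 11597555 to 23062895, and mitochondrial genes took 2% to 5.4% of them. Thy1, part of the transgene cassette, lay between 920 and 2550 CPM (counts scaled to library size) in T41B libraries and between 254 and 400 CPM in wild-type ones. The hippocampal markers Prox1 and Fibcd1 averaged 138 and 112 CPM. In both pairs of libraries with equal labels the libraries differed. For sham Mouse1557 they had 37.7 and 18.8 CPM of Cst7 and 46.5 and 25.9 CPM of Trem2. One library of stimulated Mouse1592 stood apart from the other: it had 920 against 1950 CPM of Thy1, 29.2 against 125 CPM of Ifit1 and 13.6 against 37.2 CPM of Cst7. Whether its labels are right was not tested. The list medians without Mouse1592 are plotted for every list, and some are also printed. All samples of a labelled batch had the same treatment, so batch and treatment cannot be told apart. In RNA from whole slices, fewer cells of a type and less RNA per cell cannot be told apart either.

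No gene passed the test for the interaction. With edgeR's quasi-likelihood test, 0 of 18711 genes (0%) had an adjusted p under 0.05, and the smallest adjusted p was 1. At an unadjusted p under 0.05 there were 383 genes, 230 with a positive interaction (1.23% of those tested) and 153 with a negative one (0.818%). DESeq2 called 1 gene, Gm4294, which had 0 counts in 14 of 18 samples, and limma voom with the mouse as a random effect called 0. Within the 8 mice with both slices, a fit with the mouse as replicate block also called 0 of 18570 genes, with a smallest adjusted p of 0.831. It placed 1054 genes at an unadjusted p under 0.05, 554 positive (2.98%) and 500 negative (2.69%).

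The response to stimulation itself was called for many genes. In the same fit 3524 genes were called between stimulated and sham slices under vehicle and 3823 under BD10-2. Across 16165 genes the 2 sets of responses, which share no sample, had a Pearson correlation of 0.91 and a Spearman correlation of 0.8, as a description across genes that are not independent. Over all genes the median interaction was 0.013, with 9891 genes (52.9%) positive, and the 95% interval of a typical gene reached 0.459 to either side of its estimate. A difference in response of that size in a single gene was thus not detectable here, and a missed threshold does not show equal responses. Thy1 had an interaction of -0.23 (95% interval -0.93 to 0.48), and App one of 0 (-0.23 to 0.24). Because no gene was called, the values below are estimates with their errors.

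**Figure D1:**
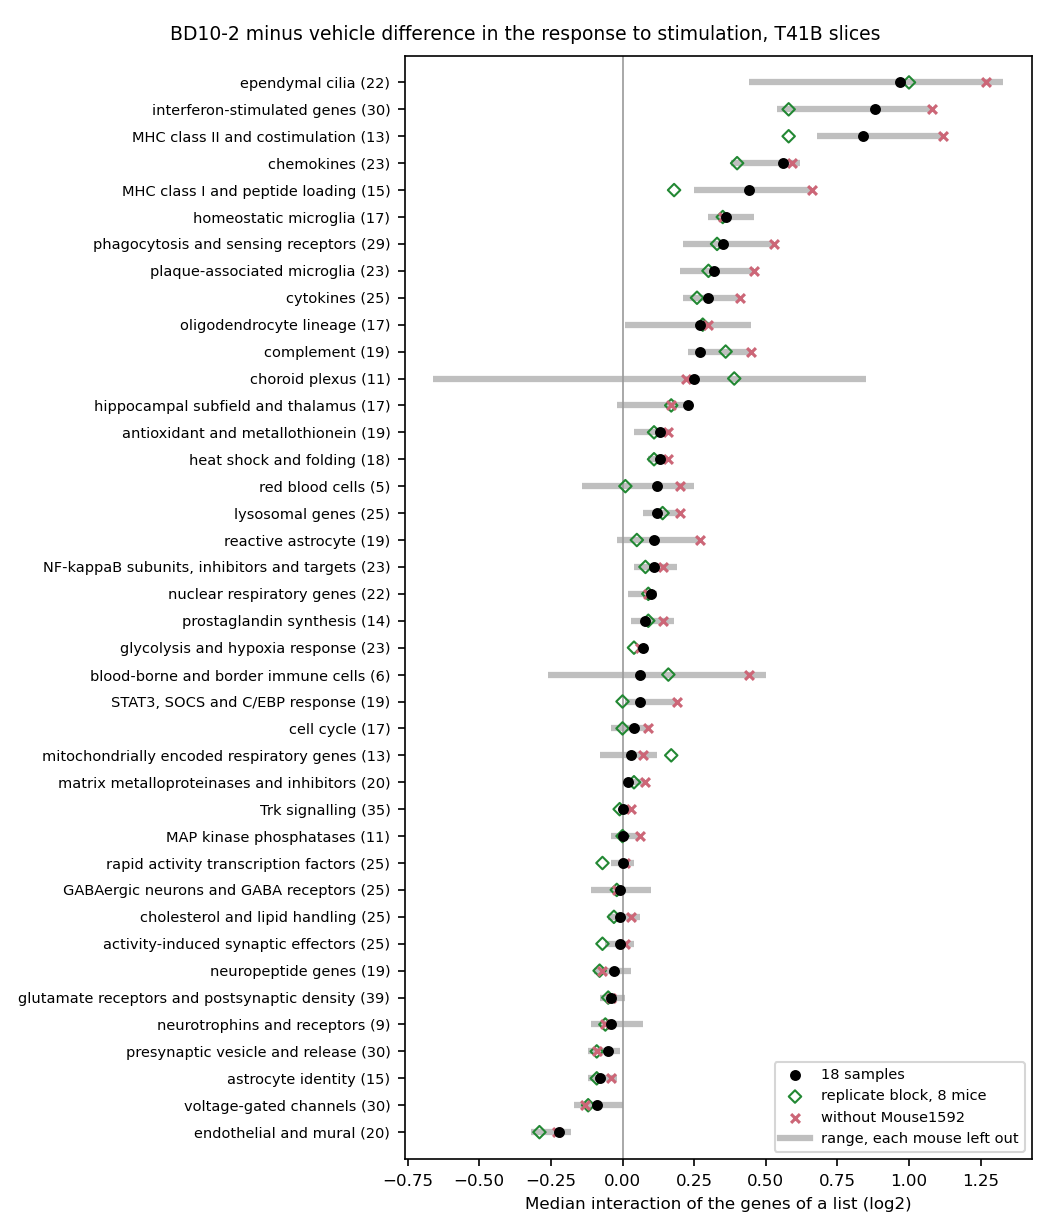
Median interaction (log2, x axis) of the genes in each list (y axis, with the number of genes that passed the filter on low counts), in the 18 samples (black), in the replicate-block fit (green) and without Mouse1592 (red), with grey bars for the range when each mouse is left out in turn. The interferon, MHC and microglial lists lie to the right of 0, the neurotrophin, activity and synaptic lists lie close to 0, and endothelial and mural genes lie lowest at -0.22.

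Genes of neurotrophins and their receptors, among them TrkB and TrkC on which the compound acts, and of Trk signalling had interactions near 0. Of 9 neurotrophin and receptor genes that passed the filter, 3 had a positive interaction, none had an unadjusted p under 0.05 and the median was -0.04. Ntrk2, which encodes TrkB, was at 661, 571, 477 and 674 CPM in the vehicle sham slices of Mouse1510, Mouse1551, Mouse1553 and Mouse1579 and at 725, 674, 682 and 669 CPM in their stimulated slices. It was at 674, 688, 602 and 648 CPM in the sham slices of Mouse1563, Mouse1564, Mouse1570 and Mouse1592 and at 727, 730, 653 and 640 CPM in their stimulated slices. The ranges overlapped, and the interaction of Ntrk2 was -0.15 (95% interval -0.41 to 0.12). Ntrk3, which encodes TrkC, had an interaction of -0.09 (-0.46 to 0.28) and Bdnf one of -0.04 (-0.42 to 0.34). The lowest of the list was Sorcs2, a sortilin-family receptor, at -0.19. Of 35 genes of the downstream Trk pathway, 18 were positive, none had an unadjusted p under 0.05 and the median was 0. Under the replicate block 4 did, with Grb2 at 0.2, Map2k1 at 0.21, Plcg1 at -0.2 and Shc3 at -0.43, against 1 with the mouse as a random effect in limma voom. Shc3, an adaptor that couples Trk receptors to Ras in neurons, was also the lowest in the 18 samples, at -0.3 (SE 0.22). In Shc3 the 4 within-mouse differences under BD10-2 (-0.54, -0.27, -0.07 and 0.03 on the log2(CPM + 1) scale) lay below the 4 under vehicle (0.19, 0.33, 0.1 and 0.22). Such a full separation downward was seen for 284 genes (1.52%), and upward for 401 genes (2.14%).

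Activity-regulated genes also showed no common shift. The 25 rapid transcription factors had a median interaction of 0, with 11 positive and 0 at an unadjusted p under 0.05 by edgeR. Egr1, an immediate-early zinc finger factor, was at 342, 346, 395 and 482 CPM in vehicle sham slices and at 316, 306, 231 and 302 CPM in the stimulated slices of the same mice. Under BD10-2 it was at 372, 511, 416 and 525 CPM in sham and 218, 294, 287 and 302 CPM in stimulated slices of the 4 paired mice. All 8 mice had less Egr1 RNA in the stimulated slice, and the interaction was -0.21 (95% interval -0.61 to 0.2). Fos had an interaction of 0.22 (-0.23 to 0.67) and Arc, whose product regulates AMPA receptor endocytosis, one of 0.03 (-0.61 to 0.67). The most negative was Npas4, a neuronal factor induced by calcium entry, at -0.42 (-1.34 to 0.5), and the most positive was Atf3, a stress-induced factor, at 0.46 (-0.04 to 0.97). Npas4 moved to -1.07 without Mouse1579 (unadjusted edgeR p 0.00409), the vehicle mouse whose sham slice held 58.8 CPM of Npas4 against 11.6 to 25.5 CPM in the other 3.

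The later synaptic effectors of activity had a median interaction of -0.01 over 25 genes, and the MAP kinase phosphatases one of 0 over 11 genes. Among the effectors, Inhba, which encodes an activin subunit, had the highest value (0.53, SE 0.34) and Syt4, a vesicle protein, the lowest (-0.23, SE 0.22). Of the phosphatases Dusp5 was highest (0.3, SE 0.16) and Dusp4 lowest (-0.22, SE 0.17).

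Synaptic and channel genes lay slightly below 0. Glutamate receptor and postsynaptic genes had a median of -0.04 with 25 of 39 negative, presynaptic genes -0.05 with 23 of 30 negative, and voltage-gated channels -0.09 with 26 of 30 negative. None of these genes had an unadjusted p under 0.05 in the 18 samples. Under the replicate block, 5 postsynaptic genes, 3 channel genes and 1 presynaptic gene did so, all with a negative interaction. With the mouse as a random effect in limma voom these counts were 0, 2 and 1. The presynaptic gene was Stx1a, which encodes the SNARE protein syntaxin-1A. Its within-mouse differences were -0.11, 0.37, -0.18 and -0.3 under vehicle and -0.76, -0.95, -0.36 and -0.29 under BD10-2, overlapping in 1 mouse on each side, and its interaction was -0.38 (SE 0.27), or -0.55 under the block. Cacna1g, a T-type calcium channel, had an interaction of -0.45 (SE 0.26). The scaffold gene Dlg4 and the kinase gene Camk2a were at -0.02 (95% interval -0.3 to 0.26) and -0.03 (-0.43 to 0.37). Without Mouse1553 the channel median was 0, and the postsynaptic median 0.01 with 21 of 39 positive.

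Cytokines and chemokines, whose median responses lay between 3.01 and 3.56 on the log2 scale in both treatments, had mostly positive interactions. The median was 0.3 over 25 cytokine genes (19 positive) and 0.56 over 23 chemokine genes (17 positive), with 1 gene of each list at an unadjusted p under 0.05. Il1b, the classical inflammasome product, was at 0.617, 2.78, 3.69 and 0.258 CPM in vehicle sham slices and 256, 426, 359 and 383 CPM in stimulated ones. Under BD10-2 the paired mice had 2.19, 2.1, 1.07 and 1.04 CPM in sham and 745, 703, 361 and 238 CPM in stimulated slices. The highest stimulated values of Il1b were in Mouse1563 and Mouse1564 and the lowest in Mouse1592, so that the BD10-2 range enclosed the vehicle range, and the interaction was 0.77 (95% interval -0.65 to 2.2).

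Il1rn, which encodes the antagonist of the IL-1 receptor, was the cytokine gene at an unadjusted p under 0.05. It was at 0.123, 1.58, 5.14 and 0.568 CPM in vehicle sham slices against 220, 429, 293 and 171 CPM after stimulation. Under BD10-2 it was at 0.866, 0.736, 0.492 and 0.104 CPM in sham and 651, 708, 253 and 84.3 CPM in stimulated slices of the paired mice. The interaction of Il1rn was 2.31 (SE 1.07, unadjusted edgeR p 0.0435), and it was 1.11 (p 0.385) without Mouse1553, whose sham slice held the 5.14 CPM. The lowest among cytokines averaging at least 1 CPM was Lif, a member of the IL-6 family, at -0.69 (SE 0.49).

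Among the chemokines, Ccl12, a ligand of CCR2, had an interaction of 1.39 (SE 0.6, unadjusted edgeR p 0.0314), which was 0.75 (p 0.0874) without Mouse1572, and Ccl2 had the lowest at -0.25 (SE 0.41). The highest was Cxcl9, an interferon-induced ligand of CXCR3, at 2.08 (unadjusted edgeR p 0.0951), but 0.97 without Mouse1572, whose stimulated slice held 18.2 CPM, and 0.15 under the replicate block. Tnf, Il6, Ccl3 and Cxcl10 had intervals that held 0, with estimates of 0.3, 0.04, 0.51 and 0.29. The genes of NF-kappaB subunits, inhibitors and targets had a median of 0.11 with 17 of 23 positive, and those of the STAT3, SOCS and C/EBP response 0.06 with 11 of 19 positive, near the share over all genes. The first ranged from 0.04 without Mouse1564 to 0.19 without Mouse1563, and the second from 0.01 without Mouse1564 to 0.19 without Mouse1592. None of these genes had an unadjusted p under 0.05. Without Mouse1592 the cytokine median was 0.41 and the chemokine median 0.59.

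All 30 interferon-stimulated genes had a positive interaction, with a median of 0.88 against 0.013 over all genes and a range of 0.14 to 1.69, and 3 of the 30 had an unadjusted p under 0.05 (Rtp4, Isg15 and Irf7). These genes answer to type I interferon, often through a promoter element with a repeated GAAA. The element, GAAA followed after any 2 bases by another GAAA, was searched on both strands, overlaps counted, in the 250 bases upstream of the first listed RefSeq start of each gene (GRCm38.p6). It occurred in 12 of the 23 interferon-stimulated genes with such a window (52.2%) and in 326 of 12185 windows of all genes tested (2.68%). Upstream windows of 60 bases are shown for 3 members described here, which differ in the number of elements, 5′ to 3′ on the strand of the gene with every element in capitals.
Isg15, chr4:156200850-156200909, minus strand, 3 overlapping elements: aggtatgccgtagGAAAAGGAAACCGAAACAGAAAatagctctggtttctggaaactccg
Ifit1, chr19:34640779-34640838, plus strand, 2 elements: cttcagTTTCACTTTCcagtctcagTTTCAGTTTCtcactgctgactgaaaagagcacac
Rsad2, chr12:26456538-26456597, minus strand, 1 element: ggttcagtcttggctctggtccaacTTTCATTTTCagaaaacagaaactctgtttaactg

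Isg15 encodes a ubiquitin-like antiviral protein. It was at 0.925, 5.04, 3.22 and 1.76 CPM in vehicle sham slices and at 50.3, 73.5, 67.9 and 39.4 CPM in stimulated ones. Under BD10-2 the paired mice had 1.32, 1.7, 0.738 and 1.2 CPM in sham and 74.6, 128, 63.8 and 18.8 CPM in stimulated slices. Mouse1592 was lowest of all 8 after stimulation and Mouse1564 highest, and the groups overlapped. The interaction of Isg15 was 1.39 (SE 0.66, unadjusted edgeR p 0.0479), and 1.04 (p 0.154) without Mouse1551.

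Ifit1, whose product binds foreign RNA, went from 8.63, 24.1, 9.97 and 8.98 CPM to 221, 285, 265 and 156 CPM under vehicle. Under BD10-2 it went from 8.51, 9.74, 4.27 and 6.67 CPM to 408, 377, 307 and 80.2 CPM in the paired mice. The stimulated levels of Mouse1563, Mouse1564 and Mouse1570 lay above all 4 vehicle mice, while Mouse1592 lay below them and Mouse1572, at 208 CPM, among them. The interaction of Ifit1 was 1.11 (95% interval -0.03 to 2.24). Rsad2, which encodes viperin, had an interaction of 0.92 (-0.56 to 2.39), and Mx1, a dynamin-like antiviral GTPase, had the largest of the list at 1.69 (-0.21 to 3.59). Mean Mx1 levels were low in sham slices, at 1.04 CPM under vehicle and 0.4 CPM under BD10-2. In stimulated slices they were 45.7 and 60.4 CPM. On the log2(CPM + 1) scale the mean within-mouse difference of Mx1 was 0.6 higher under BD10-2.

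As a list score, the mean within-mouse difference over the 30 interferon-stimulated genes on the log2(CPM + 1) scale, the 4 vehicle mice had 3.2, 2.61, 3.28 and 2.63. The BD10-2 mice had 3.79, 4.05, 3.72 and 1.72. Of these scores 3 were above and 1 was below all vehicle mice, and the mean difference between treatments was 0.39, or 0.92 without Mouse1592. Without Mouse1592 the list median of the interaction was 1.08. In that fit 18 of 30 genes had an unadjusted p under 0.05, against 3.19% of all genes. The median was 0.54, with 0 of 30, without Mouse1551, the vehicle mouse with the highest sham levels of Isg15 and Ifit1. The count was also 0 of 30 without Mouse1563, without Mouse1564, without Mouse1570 and with limma voom. With the library of Mouse1592 that stood apart used alone it was 0 of 30 (1.78% of all genes), and with the other library alone 10 of 30 (2.45%). Under the replicate block the median was 0.58, with 4 of 30 (5.68% of all genes).

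**Figure D2:**
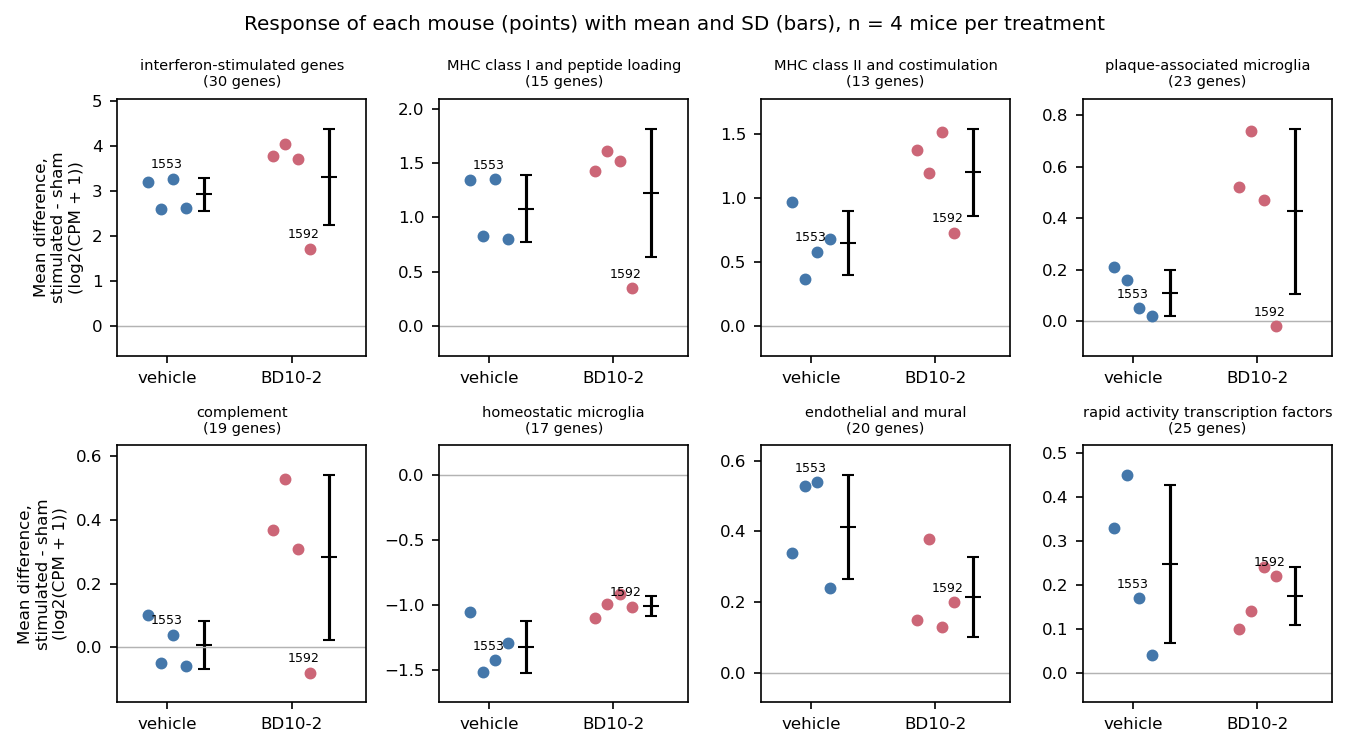
Mean within-mouse difference between the stimulated and the sham slice (log2(CPM + 1), y axis) over the genes of 8 lists, with 1 point per mouse, for 4 vehicle (blue) and 4 BD10-2 mice (red), and bars for the mean and SD. Mouse1592 is the lowest point of all 8 mice in the interferon, MHC class I, plaque-associated and complement panels, and the other 3 BD10-2 mice lie above every vehicle mouse there.

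Antigen presentation genes followed the same direction. For MHC class II and costimulation all 13 genes were positive, with a median of 0.84 and 5 genes at an unadjusted p under 0.05 (H2-DMb1, H2-Aa, H2-Eb1, H2-Ab1 and Cd74). H2-Eb1, the beta chain of the I-E molecule, was at 2.04, 17.2, 8 and 7.85 CPM in vehicle sham slices and at 2.33, 4.32, 3.53 and 4.49 CPM after stimulation. Under BD10-2 the paired mice had 4.79, 13, 5.09 and 5.68 CPM in sham and 5.56, 10.5, 11 and 5.73 CPM in stimulated slices. The unpaired slices stood at the ends of this range, with 2.68 CPM in sham Mouse1557 and 59.5 CPM in stimulated Mouse1572. The interaction of H2-Eb1 was 2.85 (SE 0.95, unadjusted edgeR p 0.00733) in the 18 samples, 1.67 (p 0.0241) without Mouse1572 and 1.27 (p 0.0112) under the replicate block. Cd74, the invariant chain that escorts class II molecules, had an interaction of 2.26 (SE 0.86), and 1.54 without Mouse1572. The class II median was 1.12 without Mouse1592, 0.68 without Mouse1563 and 0.58 under the block. H2-Eb1 and H2-Aa belong to a family of similar genes, so the division of reads among them is uncertain.

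For MHC class I and peptide loading all 15 genes had an interaction of at least 0, with a median of 0.44 and 0 genes at an unadjusted p under 0.05 by edgeR. H2-T23, a non-classical class I gene, was highest at 0.75 (SE 0.5). The list score was 1.34, 0.83, 1.35 and 0.8 in the vehicle mice and 1.43, 1.61, 1.52 and 0.35 in the BD10-2 mice. Again 3 BD10-2 mice lay above the vehicle mice and Mouse1592 below them. The class I median was 0.66 without Mouse1592, 0.25 without Mouse1551 and 0.18 under the replicate block, where 12 of 15 were positive.

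Genes that mark resting microglia had a lower summed level in stimulated than in sham slices, and mostly positive interactions. Their sum ran from 542 to 914 CPM in vehicle sham, 276 to 372 CPM in vehicle stimulated, 631 to 903 CPM in BD10-2 sham and 305 to 531 CPM in BD10-2 stimulated samples. Of 17 such genes 16 had a positive interaction, with a median of 0.36, 2 genes at an unadjusted p under 0.05 in the 18 samples, 7 under the replicate block and 2 with the mouse as a random effect. The list score was -1.05, -1.51, -1.42 and -1.29 in the vehicle mice and -1.1, -0.99, -0.91 and -1.01 in the BD10-2 mice. All vehicle mice but Mouse1510 lay below all BD10-2 mice. The mean difference between treatments was 0.31, and it was 0.31 without Mouse1592 as well and 0.28 without Mouse1553. Of the 22 markers of blood-borne and border immune cells 6 passed the filter, Retnlg had no count, and their sum was at most 10.3 CPM in any sample.

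P2ry13, a purinergic receptor of resting microglia, was at 9.19, 15.1, 11 and 11.8 CPM in vehicle sham slices and at 0.913, 0.682, 0.883 and 0.78 CPM in stimulated ones. Under BD10-2 it was at 14.8, 11.6, 11.3 and 15.9 CPM in sham and 1.65, 1.14, 1.66 and 2.28 CPM in stimulated slices, with 1.64 CPM in stimulated Mouse1572. All 5 stimulated BD10-2 samples thus held more P2ry13 than all 4 stimulated vehicle samples, while the sham samples overlapped. The within-mouse differences also overlapped, at -2.41, -3.26, -2.67 and -2.84 under vehicle and -2.58, -2.55, -2.21 and -2.37 under BD10-2, with Mouse1510 above Mouse1563 and Mouse1564. The interaction of P2ry13 was 0.87 (95% interval 0.29 to 1.44, unadjusted edgeR p 0.00549). It ranged from 0.64 to 1.03 when each mouse was left out in turn.

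Selplg, which encodes the P-selectin ligand, had within-mouse differences of -2.13, -2.2, -2.57 and -2.08 under vehicle and -1.47, -1.43, -1.78 and -1.7 under BD10-2. The groups did not overlap, and the interaction of Selplg was 0.65 (SE 0.26), or 0.71 under the block and 0.54 (unadjusted edgeR p 0.0877) without Mouse1553. The purinergic receptor gene P2ry12 and the microglial membrane protein gene Tmem119 had interactions of 0.41 (SE 0.28) and 0.39 (SE 0.36). The only negative value was that of Sall1, a transcription factor of microglia, at -0.2 (SE 0.15).

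**Figure D3:**
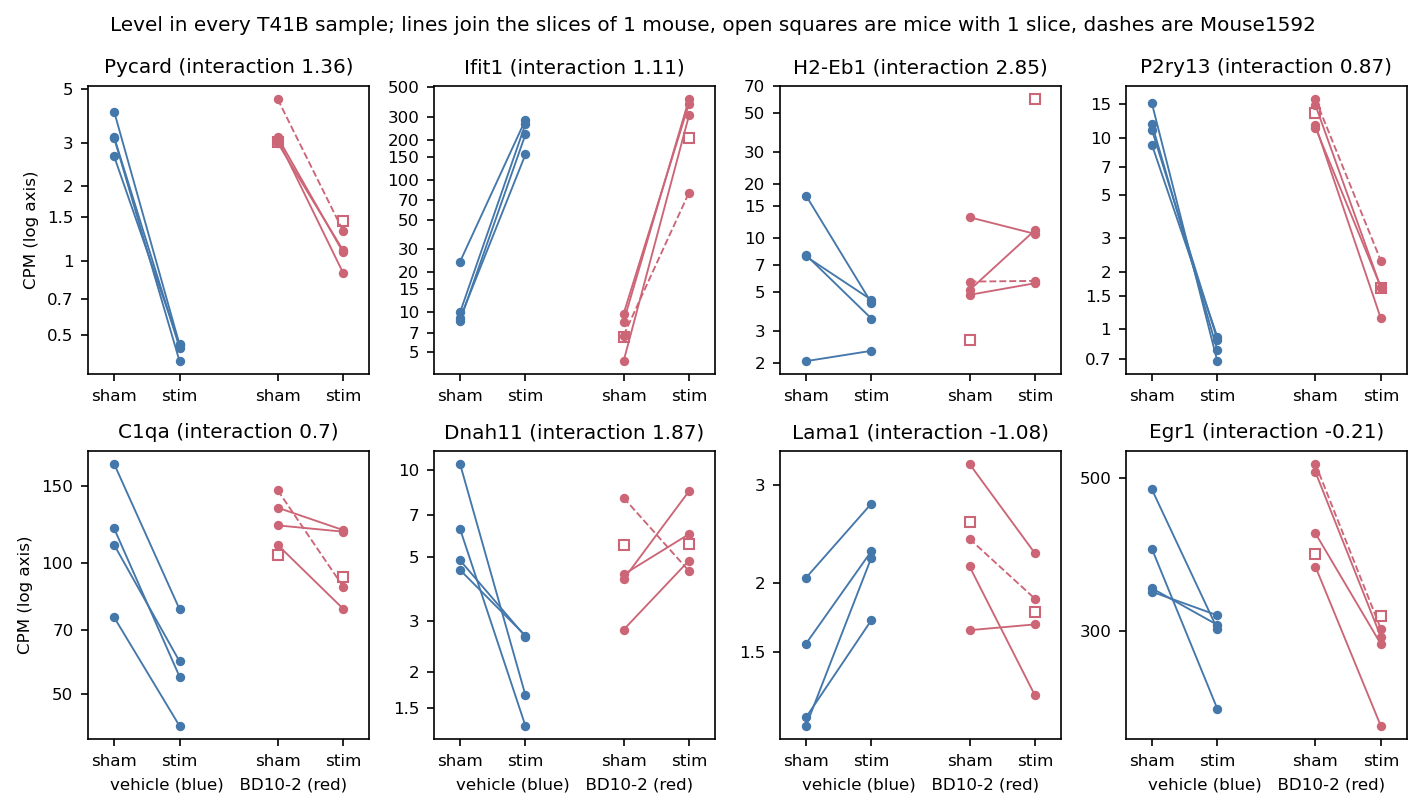
Level in CPM (log y axis) of 8 genes in each of the 18 T41B samples, under vehicle (blue) and BD10-2 (red), for sham and stimulated slices, with lines joining the slices of 1 mouse and open squares for mice with 1 slice. Stimulated Pycard and P2ry13 levels are higher in all 5 BD10-2 samples than in the 4 vehicle samples, and Egr1 is lower after stimulation in every paired mouse.

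Plaque-associated microglial genes, complement and phagocytic receptors had mostly positive interactions, whose medians depended on single mice. Without Mouse1564 they were 0.2, 0.23 and 0.21, and without Mouse1592 they were 0.46, 0.45 and 0.53, in that order. Of 23 plaque-associated genes 22 were positive, with a median of 0.32 and 1 gene at an unadjusted p under 0.05 (5 under the block, 2 with the mouse as a random effect). The vehicle mice had list scores of 0.21, 0.16, 0.05 and 0.02 and the BD10-2 mice 0.52, 0.74, 0.47 and -0.02. That gene was Lgals3, which encodes the lectin galectin-3, at 17.4, 31.6, 15.4 and 13.6 CPM in stimulated vehicle slices and 30.4, 64.7, 24.9 and 12.8 CPM in those of the paired BD10-2 mice. Its groups overlapped, and its interaction was 1.35 (SE 0.55, unadjusted edgeR p 0.0232), or 0.91 (p 0.141) without Mouse1553. The amyloid-sensing receptor gene Trem2 had an interaction of 0.53 (SE 0.32) and Cst7, a cystatin, one of 0.48 (SE 0.45).

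The complement list had a median of 0.27 with 17 of 19 genes positive, 3 at an unadjusted p under 0.05 in the 18 samples (C3, C1qa and C1qc) and 9 of 18 under the block, against 6 of 19 with the mouse as a random effect. C1qa, a chain of the recognition protein C1q, was at 74.9, 169, 120 and 110 CPM in vehicle sham slices and 42.1, 78.2, 54.7 and 59.3 CPM after stimulation. The paired BD10-2 mice had C1qa at 122, 134, 110 and 147 CPM in sham and 118, 119, 78.4 and 88.2 CPM in stimulated slices. Its 4 within-mouse differences under BD10-2 (-0.05, -0.17, -0.48 and -0.74) all lay above those under vehicle (-0.81, -1.1, -1.12 and -0.87), and the interaction of C1qa was 0.7 (95% interval 0.12 to 1.29), between 0.64 and 0.82 when each mouse was left out. C3, the central component of the cascade, had differences of 0.04, 0.2, -0.47 and -0.66 under vehicle and 1.08, 1.44, 0.79 and -0.54 under BD10-2, and an interaction of 1.14 (0.28 to 2). Mouse1592 again lay apart from the other BD10-2 mice in C3.

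Of 29 phagocytic and sensing receptor genes, 27 were positive with a median of 0.35, and 5 had an unadjusted p under 0.05 (6 under the block). The smallest unadjusted p among all 18711 genes, 0.000178, belonged to a member, Pycard (ENSMUSG00000030793). It encodes ASC, the adaptor that joins inflammasome sensors to caspase-1. Pycard was at 2.65, 4.03, 3.17 and 3.15 CPM in vehicle sham slices and 0.456, 0.455, 0.442 and 0.39 CPM in stimulated ones. Under BD10-2 it was at 3.01, 3.17, 3.12 and 4.53 CPM in sham and 1.1, 1.08, 0.891 and 1.32 CPM in stimulated slices, with 1.45 CPM in stimulated Mouse1572. Sham levels overlapped and stimulated levels did not, and the interaction of Pycard was 1.36 (95% interval 0.75 to 1.97), with an adjusted p of 1. It was 1.21 under the block (unadjusted p 0.00124) and between 1.26 and 1.47 when each mouse was left out. The other 4 members were the receptor genes Tlr9 (0.72), Fcgr4 (1.75), Fcgr3 (0.62) and Cd33 (0.57). Fcgr4 was 1.1 (unadjusted edgeR p 0.096) under the block. Lysosomal genes had a median of 0.12, with 22 of 25 positive and 0 at an unadjusted p under 0.05 by edgeR, and 0.07 without Mouse1564 or 0.2 without Mouse1592.

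**Figure D4:**
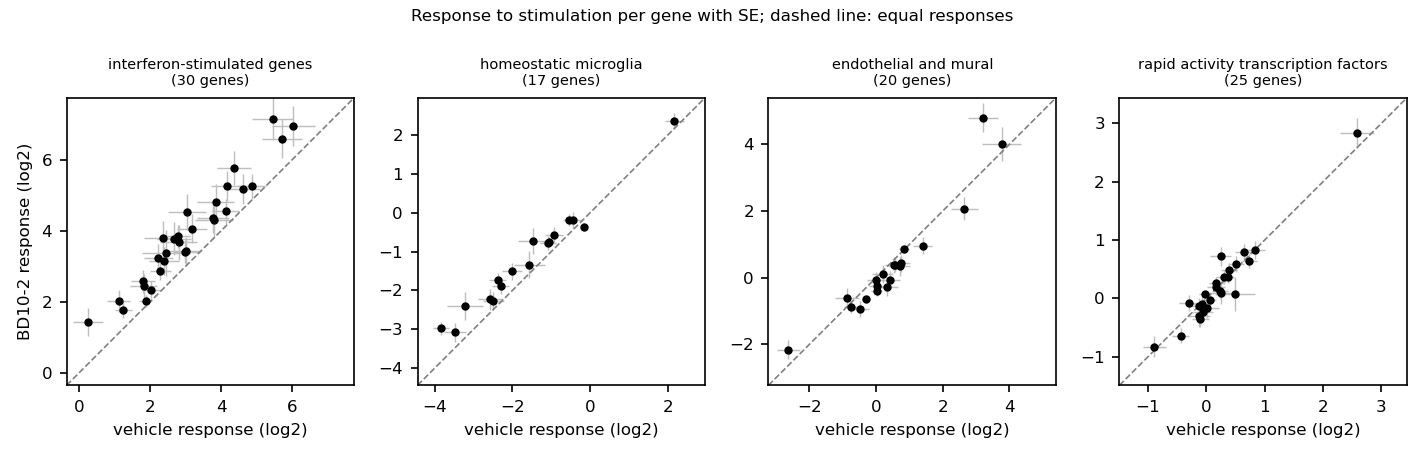
Response to stimulation (log2) of each gene under vehicle (x axis) and BD10-2 (y axis) with standard errors, in 4 lists, with a dashed line where both responses are equal. All 30 interferon-stimulated genes and 16 of 17 resting microglial genes lie above the line, 15 of 20 endothelial and mural genes lie below it, and the rapid transcription factors lie along it.

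Endothelial and mural genes had the lowest median, -0.22 over 20 genes, of which 15 were negative. In the 18 samples none of the negative genes had an unadjusted p under 0.05, and 7 did under the replicate block (Vtn, Pdgfrb, Tie1, Cdh5, Pecam1, Flt1 and Cldn5), against 2 with the mouse as a random effect in limma voom. Cdh5, the adhesion molecule of endothelial junctions, had within-mouse differences of 2.4, 2.79, 3.1 and 2.09 under vehicle and 1.68, 2.26, 1.74 and 1.59 under BD10-2. The groups overlapped through Mouse1564, and the interaction of Cdh5 was -0.59 (SE 0.51), or -0.81 under the block (unadjusted p 0.00358). Sele, the cytokine-induced adhesion molecule E-selectin, went the other way, with 2.27, 1.77, 1.7 and 1.94 against 3.24, 2.71, 2.62 and 2.31. Its groups did not overlap, and its interaction was 1.58 (SE 0.67, unadjusted edgeR p 0.0287). It was 1.12 (p 0.147) without Mouse1551. The list median stayed between -0.32 and -0.15 over all alternatives run.

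Astrocyte identity genes had a median of -0.08 with 12 of 15 negative, and reactive astrocyte genes one of 0.11 with 13 of 19 positive. Gfap, the intermediate filament of astrocytes, had an interaction of 0.12 (95% interval -0.46 to 0.7). The reactive list moved from -0.02 without Mouse1564 to 0.27 without Mouse1592.

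The highest median of any list, 0.97, belonged to 22 genes of ependymal cilia, a list added after the values had been seen. All 22 were positive and 8 had an unadjusted p under 0.05, so these counts are a description only. Dnah11, a dynein heavy chain of motile cilia, was at 4.87, 4.51, 10.5 and 6.25 CPM in vehicle sham slices and 2.65, 2.67, 1.66 and 1.3 CPM in stimulated ones. In the paired BD10-2 mice Dnah11 was at 2.8, 4.19, 4.35 and 8.02 CPM in sham and 4.86, 8.45, 6 and 4.47 CPM in stimulated slices. It was thus lower after stimulation in all 4 vehicle mice and in Mouse1592, and higher in the other 3 BD10-2 mice. The interaction of Dnah11 was 1.87 (95% interval 0.96 to 2.78, unadjusted edgeR p 0.000385). The list median was 0.44 without Mouse1553 and 1.27 without Mouse1592.

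Markers of neighbouring tissue also varied between slices. The 13 choroid plexus markers, all with counts, summed to 143 to 840 CPM in vehicle sham, 190 to 656 CPM in vehicle stimulated, 165 to 221 CPM in BD10-2 sham and 200 to 274 CPM in BD10-2 stimulated samples. The 22 ciliary genes summed to 143 to 200 CPM, 86 to 134 CPM, 122 to 193 CPM and 136 to 167 CPM in the same order, with vehicle stimulated samples below all BD10-2 stimulated ones. The sham slice of Mouse1553 held 461 CPM of Ttr, the transthyretin of the choroid plexus, and its stimulated slice 90.4 CPM. Mouse1551 differed in the opposite direction, with 89.1 CPM of Ttr in sham and 249 CPM in stimulated tissue. Ttr ranged from 0 to 9.52 CPM in all 10 BD10-2 samples. The sham slice of Mouse1553 also held 21.4 CPM of the ciliary factor Foxj1, against 10.3 to 11.3 CPM in the other vehicle sham slices. Over 11 choroid plexus genes the median interaction was 0.25, -0.66 without Mouse1553 and 0.85 without Mouse1551. Oligodendrocyte genes had a median of 0.27, and 0.01 without Mouse1553. The part of slice composition in the ciliary values was not tested.

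Among the genes with the smallest unadjusted p in each direction, all 10 positive and all 10 negative ones had 95% intervals on 1 side of 0, as that choice requires. Their within-mouse differences come from samples that also chose them, so a lack of overlap is not separate support. Over all 18711 genes, such a lack of overlap was seen for 2.14% upward and 1.52% downward. After Pycard, the positive ones were Dnah11, Adgrv1, Dnah3, Gng10, Gm10254, Dnaaf3, Gpx3, Mgme1 and H2-DMb1. Of these, Dnah11, Dnah3 and Dnaaf3 encode dynein arms of cilia or assemble them. Gng10, a G protein gamma subunit, had within-mouse differences of -0.29, -0.98, -0.64 and -0.65 under vehicle and -0.03, -0.05, -0.03 and -0.13 under BD10-2. The groups did not overlap, and the interaction of Gng10 was 0.59 (SE 0.18, unadjusted edgeR p 0.00369). Gpx3, a secreted glutathione peroxidase, had one of 1.19 (SE 0.36) and Mgme1, a mitochondrial exonuclease, one of 0.63 (SE 0.2).

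Of the negative ones, Col22a1, a collagen, was at 2.59, 1.78, 2.7 and 2.12 CPM in vehicle sham slices and at 5.52, 5.97, 7.01 and 6.7 CPM in stimulated ones. The paired BD10-2 mice had Col22a1 at 3.46, 4.02, 2.79 and 1.98 CPM in sham and 3.71, 4.61, 5.76 and 4.24 CPM in stimulated slices. The within-mouse differences did not overlap, and the interaction of Col22a1 was -0.89 (95% interval -1.45 to -0.33).

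Lama1, a laminin chain of basement membranes, had within-mouse differences of 0.32, 0.61, 0.34 and 0.36 under vehicle and -0.48, 0.02, -0.39 and -0.24 under BD10-2. All 4 vehicle mice were above all 4 BD10-2 mice, and the interaction of Lama1 was -1.08 (SE 0.33, unadjusted edgeR p 0.00456). Fbn2, a fibrillin, had one of -0.49 (SE 0.16) and Cd248, a pericyte surface protein, one of -1.08 (SE 0.36). The other 6 were Lgr6, Gm36995, E330034L11Rik, Mppe1, Npc1l1 and AC125059.1, between -1.02 and -0.43.

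**Figure D5:**
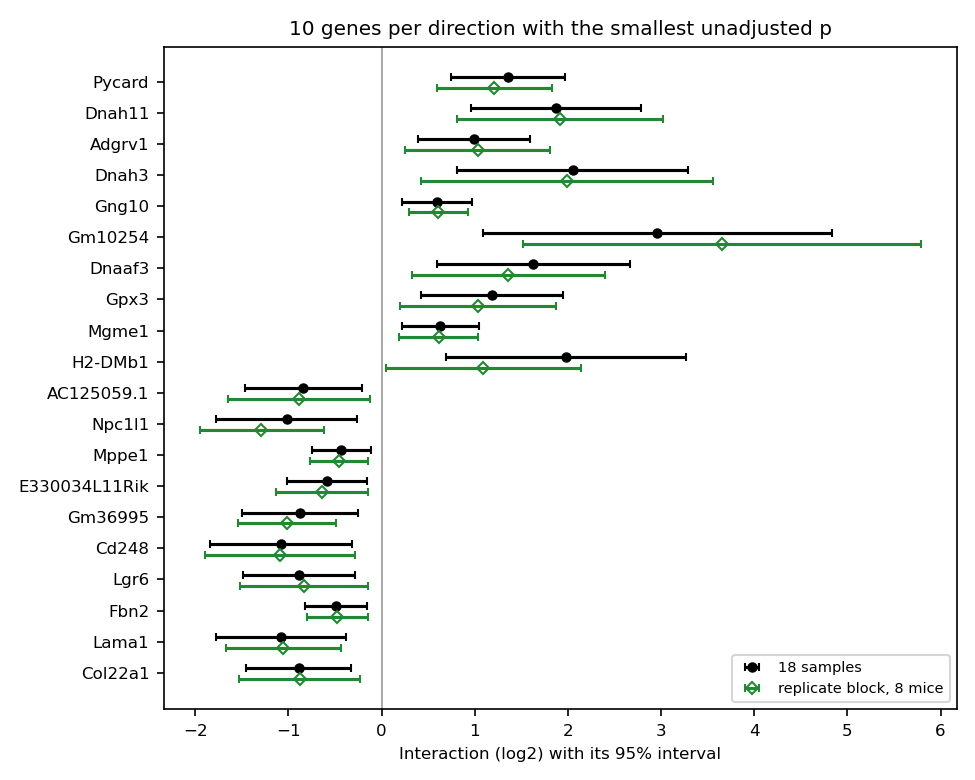
Interaction (log2, x axis) with its 95% interval for the 10 genes in each direction with the smallest unadjusted p among genes averaging at least 1 CPM, in the 18 samples (black) and in the replicate-block fit of 8 mice (green). The block fit reuses samples that chose these genes, so the shared sign of its estimates in all 20 genes is not separate support. Gm10254 has the widest intervals.

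The remaining lists had medians between -0.03 and 0.23. Heat shock genes were at 0.13 with 16 of 18 positive, antioxidant genes at 0.13 with 17 of 19, nuclear respiratory genes at 0.1 with 20 of 22, and glycolysis and hypoxia genes at 0.07 with 19 of 23. Without Mouse1553 the antioxidant median was 0.04 and the nuclear respiratory one 0.02. Mitochondrially encoded respiratory genes were at 0.03, cell cycle genes at 0.04, matrix metalloproteinases and inhibitors at 0.02, and cholesterol and lipid genes at -0.01. GABAergic genes were at -0.01, with 1 negative gene at an unadjusted edgeR p under 0.05. Their median was -0.11 without Mouse1510 and 0.1 without Mouse1553. Hippocampal subfield genes, which follow the position of a slice, were at 0.23 with 13 of 17 positive, and at -0.02 without Mouse1551. Neuropeptide genes were at -0.03, prostaglandin genes at 0.08 and red blood cell genes at 0.12 (-0.14 without Mouse1553).

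Genes that responded to stimulation in the wild-type mice, which are separate animals, gave a second view of the interaction. The wild-type mice gave 14 samples, with both slices for 4 mice under vehicle and only 2 under BD10-2. Of 1042 genes called higher after stimulation in wild-type mice under both treatments, 679 had a positive interaction in T41B mice. Their median was 0.07, with 16 positive and 4 negative at an unadjusted p under 0.05, against 1.23% and 0.818% of all genes. The 332 genes called lower had a median of 0.02, with 179 positive, near the 52.9% over all genes. At an unadjusted p under 0.05, 14 of them were positive and 3 negative. For the 50 largest wild-type increases the median was 0.5 with 38 positive. Their mean within-mouse differences were 4, 3.86, 3.75 and 3.71 in the vehicle mice and 4.26, 4.52, 4.27 and 3.08 in the BD10-2 mice. The 3 BD10-2 mice other than Mouse1592 lay above all vehicle mice, and the difference between treatments was 0.2, or 0.52 without Mouse1592. For the 50 largest wild-type decreases the median was 0.3 with 38 positive and 7 positive genes at an unadjusted p under 0.05, among them P2ry13, Selplg and Fcgr3.

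The same interaction in the 14 wild-type samples called 0 of 18568 genes by edgeR, with 360 at an unadjusted p under 0.05. Its list medians were -0.08 for interferon-stimulated genes, -0.25 for MHC class II, -0.12 for resting microglia, -0.04 for plaque-associated genes and -0.08 for complement. The difference between the genotypes was tested gene by gene as an interaction of genotype, treatment and stimulation, which called 0 of 19478 genes by edgeR, with 609 at an unadjusted p under 0.05. A difference between T41B and wild-type mice in the effect of BD10-2 on the response was therefore not shown for any single gene.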

How the data were processed

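RNA input per library was 200 ng, per the labels. Per the submitters' processing notes, tools included cutadapt 1.8.1, STAR 2.7.6a and RSEM 1.3.1, with builds GRCm38.p6 and mm10. The annotation release and the strand setting are not given in the sources used here, so overlapping genes, antisense genes and multigene families are uncertain. The authors deposited RSEM expected counts for 55421 genes in 36 libraries, of which 5.69% of values hold decimals. Symbols came from a gene name table (55154 identifiers matched, 267 did not).

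Counts of the 2 pairs of T41B libraries with equal labels were added (chi-square per degree of freedom 24 and 13.7, against 11.6 to 77 between mice) and rounded to whole numbers. Library precision covers counting error only, and p-values of the fit of 4 groups measure the spread between slices, taken as independent although slices of 1 mouse correlate (below). Genes were kept by filterByExpr (minimum count 10), scaled by TMM (factors 0.928 to 1.08) and tested with edgeR 4.0.16's quasi-likelihood F test in 1 fit of 4 groups, in R 4.3.3, with Benjamini-Hochberg adjustment over all genes and a threshold of 0.05. DESeq2 1.42.0 and limma 3.58.1 were alternatives. Slices are paired by mouse number in the labels: deviations of slices of 1 mouse correlated at 0.21 to 0.6 (8 mice), with a mean of 0.32, against -0.078 on average for 33 pairs of different mice. Within-mouse differences are of log2(CPM + 1). The fits were also run on simulated counts, drawn without a link between slices of 1 mouse, so that run could not check the effect of pairing.

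The interaction, the gene lists and the rule for naming genes were chosen with earlier results of these data known. Where an adjusted p called fewer than 10 genes, the rule named the 10 genes per direction with the smallest unadjusted p among those averaging at least 1 CPM, the extremes of each list at that level, and a fixed set that included the Trk, immediate-early, cytokine and microglial genes. Other named genes were chosen after their values were seen. Of genes with more than 1 identifier, lists used the one with the higher mean. Some items are not reported here.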

Additional observations from a re-analysis of the deposited data

Results flagged for a closer look

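In 124 sets of 4 within-mouse differences (list scores and the fixed set of genes, by treatment), 6 had 1 mouse farther from the others than Dixon's critical value at the 95% level allows for 4 samples. Chance alone gives about 1 in 20, or about as many as were seen here. Mouse1592 had an interferon-stimulated gene score of 1.72 against 3.72 to 4.05 in the other 3 BD10-2 mice, and an MHC class I score of 0.35 against 1.43 to 1.61. Vehicle Mouse1579 had a cholesterol and lipid score of 0.1 against 0.27 to 0.3. Among genes, Arc differed by -0.45 in BD10-2 Mouse1564 against -0.13 to -0.07 in the others, Fos by -1 in vehicle Mouse1553 against -0.12 to 0, and Egr1 by -0.53 in BD10-2 Mouse1570 against -0.79 to -0.77.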

How the results depend on the processing

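The count of called genes was 0 in 22 of 23 alternatives and 1 with DESeq2. The number of genes at an unadjusted p under 0.05, 383 in the 18 samples, was 1054 with the replicate block, 1018 with the mouse as a random effect (limma voom), 1031 with no filter on low counts and 205 with a minimum count of 50. It ranged from 257 without Mouse1564 to 610 without Mouse1510 when each mouse was left out, and was 593 without Mouse1592, of which 431 were positive. In the replicate block with Mouse1592 left out, chosen after seeing the data, it was 1872, of which 1180 were positive, with 0 called and a smallest adjusted p of 0.212. There, 27 of 30 interferon-stimulated genes, 16 of 23 plaque-associated genes and 10 of 13 MHC class II genes were positive at that level. Over all genes 1180 of 18790 were so. Mouse1592 had the lowest interferon and plaque-associated scores of the paired mice, and was left out after they were seen. These counts are thus a description only. The wild-type interaction had 0 called genes, and 5 with the replicate block, which there held only 2 BD10-2 mice. The cause of these changes was not tested. For the genes chosen by the naming rule, no value was called under any alternative, and 87 of 2586 had the opposite sign. Of 919 list medians, 13 moved by more than the spread between mice. For genes above 1 CPM the 95% interval typically reached 0.411 to either side, against 0.459 over all genes.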
